A study of Homo sapiens with 4 samples.

Results

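The genes that let a cell show peptides on MHC class I were followed in 786-O cells carrying PRDM16 and in cells carrying a control vector. The set holds 9 genes, chosen by name but with earlier results of these data known. These are the class I heavy chain genes HLA-B, HLA-C, HLA-E and HLA-F, the light chain gene B2M, the peptide transporter genes TAP1 and TAP2, the loading factor gene TAPBP, and NLRC5, the gene of the class I transactivator. They were found in 8 of the 56753 loci of the deposited table, of which 5 name only that gene and 3 name further genes. The 9 gene names stand among 58553 names in all.

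786-O is an established line from a clear cell renal cell carcinoma that lacks functional VHL. Adherent cultures were grown under standard conditions and had been made to carry either the control vector (2 libraries) or a PRDM16 lentivirus (2 libraries) stably, and total RNA was sequenced. Neither the promoter that drives PRDM16 nor whether each line is a clone or a pool is stated in the labels. The labels do not tell whether the replicates were grown apart, so each p-value reflects the scatter among 4 libraries and may be technical.

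Class I molecules are built from a polymorphic heavy chain and the invariant beta-2 microglobulin. Proteasomes cut cytosolic proteins into peptides, the TAP1 and TAP2 transporter carries these into the endoplasmic reticulum, and tapasin (TAPBP) bridges the transporter to empty class I molecules until a peptide is bound. NLRC5 raises transcription of many of these genes through a conserved promoter module, and interferon gamma raises their transcription. Tumours can lose this pathway, which hides them from CD8+ T cells.

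The promoters of the members with a mean of at least 1 FPKM and a promoter entry are shown because the conserved module lies in them. They are the 250 bases before the start of each gene in RefSeq (GRCh38.p14): HLA-B on the minus strand, chr6:31357180-31357429, HLA-C on the minus strand, chr6:31272093-31272342, HLA-F on the plus strand, chr6:29723184-29723433, and B2M on the plus strand, chr15:44711267-44711516. Capitals mark matches, on either strand, to 4 motif cores: CCAAT (Y box), TGACGC (X2 box), GAAANNGAA (interferon-stimulated response element) and GGGGATTCC (kappa B site).
HLA-B: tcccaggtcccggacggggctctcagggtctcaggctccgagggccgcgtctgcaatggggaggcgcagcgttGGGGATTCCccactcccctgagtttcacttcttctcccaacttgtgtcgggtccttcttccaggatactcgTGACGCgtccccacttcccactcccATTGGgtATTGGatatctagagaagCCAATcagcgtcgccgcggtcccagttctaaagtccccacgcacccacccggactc
HLA-C: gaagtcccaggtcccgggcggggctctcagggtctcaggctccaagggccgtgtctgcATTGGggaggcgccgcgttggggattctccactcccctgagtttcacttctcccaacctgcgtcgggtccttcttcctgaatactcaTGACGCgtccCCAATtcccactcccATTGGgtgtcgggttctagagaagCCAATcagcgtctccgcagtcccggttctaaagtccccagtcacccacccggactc
HLA-F: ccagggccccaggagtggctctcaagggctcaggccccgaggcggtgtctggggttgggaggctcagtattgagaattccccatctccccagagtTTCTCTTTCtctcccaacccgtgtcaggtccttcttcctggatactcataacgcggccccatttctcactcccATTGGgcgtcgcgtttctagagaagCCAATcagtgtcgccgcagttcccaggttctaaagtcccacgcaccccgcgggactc
B2M: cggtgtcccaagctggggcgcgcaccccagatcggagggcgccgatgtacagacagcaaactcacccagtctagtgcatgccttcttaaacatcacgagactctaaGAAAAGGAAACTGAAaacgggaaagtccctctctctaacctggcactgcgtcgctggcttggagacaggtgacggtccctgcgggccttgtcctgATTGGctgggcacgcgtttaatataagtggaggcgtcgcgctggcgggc

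HLA-B and HLA-C share the X2 core, at 106 to 101 and at 105 to 100 bases before the start, followed in both by a reversed Y box core at 81 to 77 and 80 to 76. Only 7.67% of 35116 promoter windows of this length hold TGACGC, while 32.0% hold CCAAT. The kappa B core lies at 177 to 169 in HLA-B, and 0.253% of all windows hold it. B2M holds a pair of overlapping interferon cores from 144 to 130 and a reversed Y box core at 49 to 45, and HLA-F holds an interferon core on the opposite strand at 155 to 147, against 6.88% of all windows with that core. Of the 9 members, 7 had a promoter entry (HLA-E and NLRC5 did not), and among these 7 the Y box core was found in 5, the interferon core in 5, the X2 core in 3 and the kappa B core in 1. These matches describe letters and do not show that a factor is bound.

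PRDM16 stood at 0.0157 and 0.234 FPKM with the control vector and at 1226 and 1146 FPKM with PRDM16, so the labels and the targeted gene go together (limma adjusted p = 0.000317). FPKM count fragments per kilobase of a transcript after scaling for library size. The values summed to 556213 to 574003 FPKM per library and 23138 to 24490 loci were above 0. Judged by the lowest values, the other libraries were 1.17 to 1.39 times as deep as control vector replicate 1, and the number of reads is unknown. Of 8 renal and clear cell carcinoma markers, 7 had a mean of at least 1 FPKM. Of these 7, 5 had a lower mean with PRDM16, 2 had a higher mean, and none passed the test. The 2 higher ones were keratin loci. KRT8 was 202 and 169.5 FPKM with the control vector versus 208 and 204.5 FPKM with PRDM16. The KRT18 locus was 81.6 and 74.5 FPKM versus 101 and 103 FPKM. The renal lineage gene PAX8 was 202 and 208.5 FPKM versus 190 and 169 FPKM, and the carbonic anhydrase gene CA9 was at 0.394 to 0.629 FPKM. The kidney cadherin gene CDH16 was 1.58 and 1.86 FPKM versus 0.997 and 0.926 FPKM (limma adjusted p = 0.689). EPAS1 had the largest change of the tested markers on this list, with control vector replicate 2 the high library. It was 79.6 and 140.7 FPKM versus 74.0 and 63.6 FPKM (log2 change -0.62, limma adjusted p = 0.689). Of 14 leukocyte markers, CD3D, CD3E and TYROBP were listed at 0 and PTPRC was at most 0.0126 FPKM. The single-gene loci on that list summed to 2.02 and 2.26 FPKM with the control vector, then 2.95 and 3.30 FPKM with PRDM16, most of it LAPTM5. Not in this sum is the locus of the leukocyte marker CD68, which also names EIF4A1, SENP3 and others. It was 448 and 362 FPKM versus 473 and 477 FPKM (limma adjusted p = 0.689), and the share of CD68 in it is unknown. Summed levels of dendritic and endothelial markers were at most 0.623 FPKM, again over single-gene loci, and those of fibroblast markers 4.42 to 4.86 FPKM, with DCN at 0. Outside that sum, the locus of the fibroblast marker PDGFRA also names FIP1L1 and others and was 32.4 and 31.1 FPKM versus 38.3 and 39.6 FPKM (limma adjusted p = 0.689). The part of these marker values in the results was not tested.

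The members stood at widely different levels, 4 loci with a mean of at least 1 FPKM and 4 below it. The locus that joins HLA-B and HLA-C (and MIR6891) was the highest, at 198 to 254 FPKM, followed by B2M at 74.2 to 81.5 FPKM, NLRC5 at 4.26 to 6.47 FPKM and HLA-F at 1.68 to 2.26 FPKM. These 4 did not overlap in level in any library and were the ones with a mean of at least 1 FPKM, the minimum for the test. The other 4 were far below 1 FPKM: the TAPBP locus, which also names ZBTB22, was at 0.164 to 0.179 FPKM, HLA-E at 0 to 0.0802 FPKM, the TAP2 locus, which also names HLA-DOB, at 0.00862 to 0.0253 FPKM, and TAP1 was listed at 0 in all 4 libraries. HLA-E and TAP2 overlapped in level. HLA-G, a non-classical heavy chain gene outside the set, was also listed at 0 in all 4. The plot of member loci by library shows the tested and the untested loci.

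**Figure D1:**
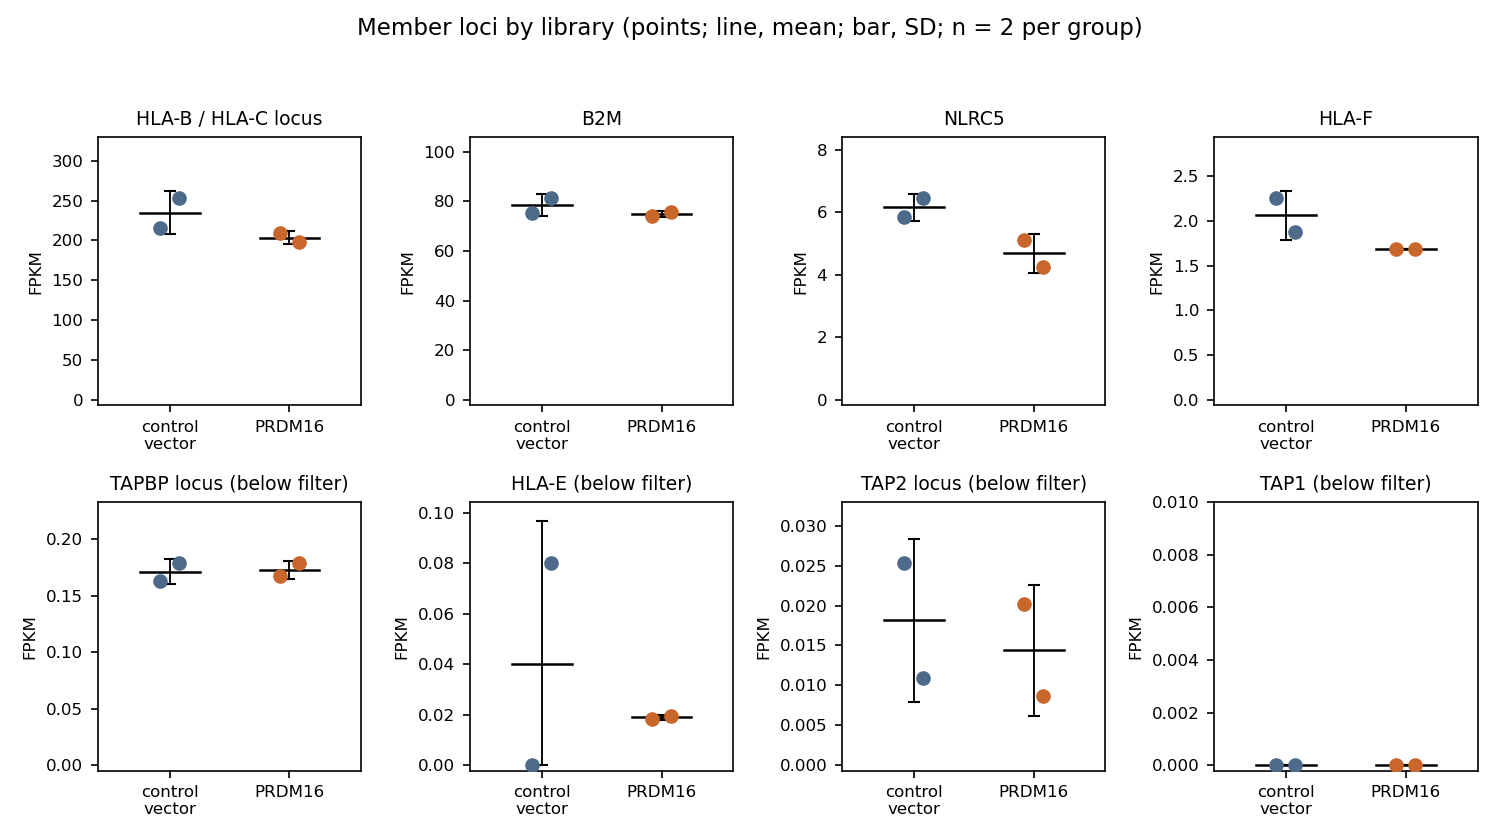
FPKM of the 8 member loci in each library (y axis, own scale per panel, from 0), with points for the 2 libraries of each group, a line for the mean and a bar for the SD. In the upper row the PRDM16 points lie below the control vector points except for B2M, and the lower row holds the 4 loci that were not tested, with TAP1 at 0 in all libraries.

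The 4 low members lie among genes that were also listed at or near 0. All 7 members on chromosome 6 are within the 3.59 Mb from the start of HLA-F (29722775) to the end of TAPBP (33314387) in the GENCODE release 29 annotation of GRCh38, while B2M is on chromosome 15 (44711487 to 44718877, plus strand) and NLRC5 on chromosome 16 (56989485 to 57083531, plus strand). This stretch is most of the MHC. Of its 120 loci with a protein-coding gene that are reported here, 88 (73.3%) were listed at 0 in all 4 libraries and 9 had a mean of at least 1 FPKM. On the rest of chromosome 6, 16.7% of 819 loci were listed at 0, and on other chromosomes 16.2% of 16741. The stretch was singled out after its values were seen.

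Widely expressed genes were among those at 0. The ribosomal protein gene RPS18 was listed at 0 in all 4 libraries, alone among 54 single-gene ribosomal protein loci, whose median was 213 FPKM. The tubulin gene TUBB, the chaperone gene BAG6, the RNA helicase gene DDX39B, the kinase subunit gene CSNK2B, FLOT1, ABCF1 and the mitochondrial ribosomal protein gene MRPS18B were listed at 0 as well. These 8 were chosen after their values were seen. A listed 0 in this stretch can therefore be a failed estimate, and the values of TAP1, TAP2, TAPBP and HLA-E are not read as absence of the RNA or as a lack of change. HLA-F and the HLA-B and HLA-C locus lie in the same stretch, so their levels and changes carry the same doubt. The cause of the zeros was not tested.

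**Figure D2:**
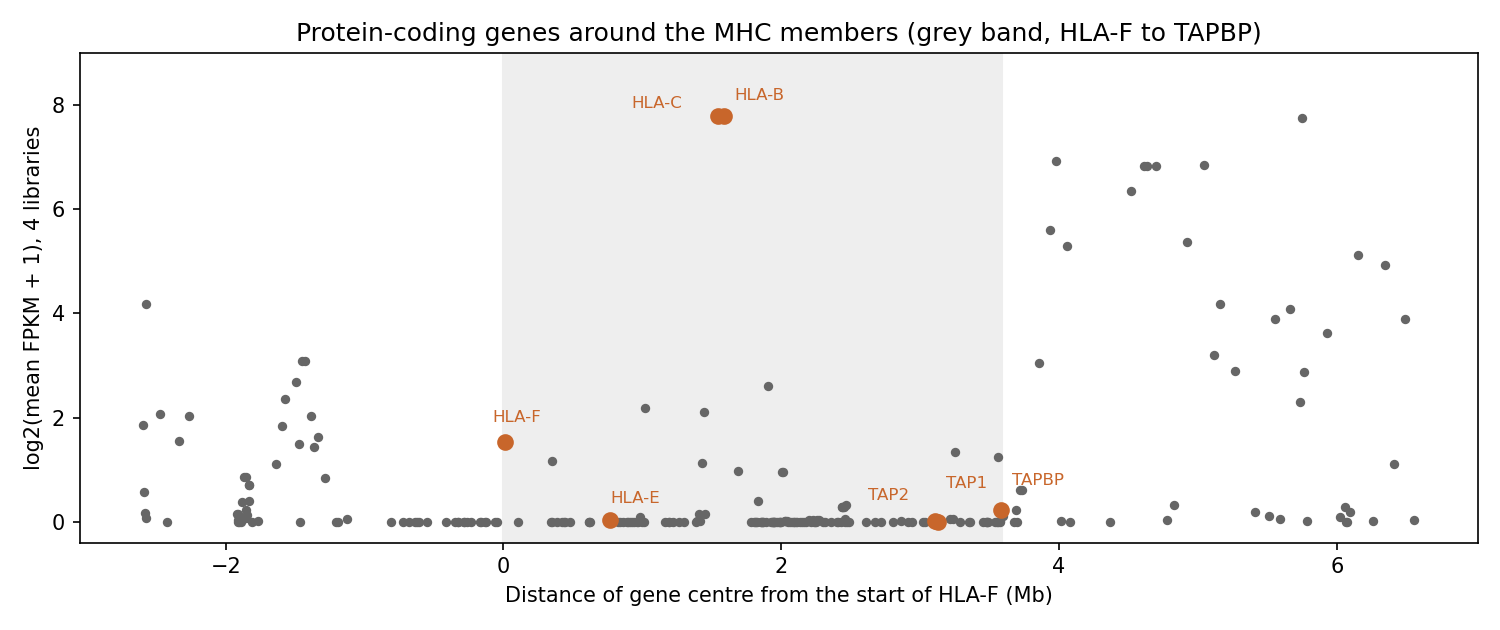
log2(mean FPKM + 1) over the 4 libraries (y axis) of the protein-coding genes reported here against the distance of the gene centre from the start of HLA-F in Mb (x axis), with members in orange and the 3.59 Mb from HLA-F to TAPBP as a grey band. Most genes in the band lie at 0, the HLA-B and HLA-C locus stands at the top, and genes beyond the right edge of the band reach levels of 3 and more.

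The few loci with signal in the stretch were low apart from the HLA-B and HLA-C locus. PRRC2A averaged 5.06 FPKM, IER3 3.57 FPKM and TCF19 3.30 FPKM, and PPP1R11, CCHCR1, the BRD2 locus and the WDR46 locus each averaged under 2 FPKM. In the 3 Mb after TAPBP, 11.6% of 43 protein-coding loci were listed at 0, and in the 3 Mb before HLA-F 46.6% of 58. The low values ran past both edges of the stretch. The protein-coding genes from TRIM27 to ZFP57, before HLA-F, averaged 0 FPKM. Most of these are olfactory receptor genes, and the 58 loci before HLA-F also hold many clustered histone genes. Whether the zeros of such genes are failed estimates was not tested. After TAPBP, DAXX averaged 0.0866 FPKM and CUTA 0 FPKM, while BAK1, further on, averaged 7.24 FPKM.

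The heavy chain values carry further limits. In GENCODE release 29 the HLA-B gene model runs from 31269491 to 31357188 on the minus strand and overlaps HLA-C (31268749 to 31272130, minus strand), and the table gives the pair 1 value. Of the 50-base stretches of the longest coding transcript, 2.54% in HLA-B, 6.71% in HLA-C, 5.13% in HLA-E and 1.70% in HLA-F also occur in a transcript of another gene, mostly other class I genes and pseudogenes, against none in B2M and NLRC5. That share was 35.8% in TAP2, 6.09% in TAPBP and 1.07% in TAP1. How the authors' counting divided such reads is not stated in the labels, so the heavy chain values are uncertain. HLA-E lies at 30489467 to 30494205 on the plus strand and HLA-F at 29722775 to 29738528, plus strand, where HLA-F-AS1 runs on the opposite strand, and reads of the pair cannot be told apart without strand. TAP2 (32821833 to 32838780), TAP1 (32845209 to 32853978) and TAPBP (33299694 to 33314387) are all on the minus strand.

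None of the 4 tested members passed the test between PRDM16 and control vector, and all 4 had the lower mean with PRDM16. In 3 of them, both PRDM16 libraries lay below both control vector libraries, which held for 20.3% of all 13246 tested loci. With control vector replicate 2 left out, 3 were still below, beside 36.2% of all loci. The limma test called 3 loci in the whole table (0.0226%), 0 of them members, and 0 members had an unadjusted p under 0.05, as 6.12% of all loci did. The median log2 change of the 4 was -0.20, beside 0.00399 over all tested loci. In whole cultures, fewer cells with a transcript and less of it per cell cannot be told apart.

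NLRC5, the transactivator, showed the largest difference of the 4. It read 5.85 and 6.47 FPKM with the control vector, then 5.13 and 4.26 FPKM with PRDM16, so the groups did not overlap. The means were 6.16 ± 0.436 and 4.69 ± 0.614 FPKM (SD, n = 2 each), 1.31-fold lower with PRDM16. The log2 change was -0.33 (SE 0.13, 95% interval -0.68 to 0.01), which did not pass (limma adjusted p = 0.689).

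The HLA-B and HLA-C locus read 216 and 254 FPKM with the control vector, then 209 and 198 FPKM with PRDM16. Both PRDM16 libraries were lower, the nearest libraries of the groups were close, and control vector replicate 2 was the high one. The means were 234.8 ± 26.5 and 203 ± 8.09 FPKM (SD, n = 2), a log2 change of -0.20 (SE 0.11, 95% interval -0.50 to 0.09, limma adjusted p = 0.689). The change was -0.09 with control vector replicate 2 left out and -0.32 with control vector replicate 1 left out.

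HLA-F, a non-classical class I heavy chain gene, was 2.26 and 1.87 FPKM versus 1.68 and 1.69 FPKM. Here control vector replicate 1 was the high library. The log2 change was -0.19 (SE 0.15, 95% interval -0.58 to 0.20, limma adjusted p = 0.695), and leaving out control vector replicate 2 gave -0.28, leaving out control vector replicate 1 gave -0.10.

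B2M, the shared light chain, read 75.2 and 81.5 FPKM with the control vector, then 74.2 and 75.8 FPKM with PRDM16. The groups overlapped. The log2 change was -0.06 (SE 0.09, limma adjusted p = 0.811), with a 95% interval from -0.30 to 0.18, and leaving out control vector replicate 2 gave -0.00422, leaving out control vector replicate 1 gave -0.12. Among the untested members, the TAPBP locus was 0.164 and 0.179 FPKM versus 0.167 and 0.179 FPKM, HLA-E was 0 and 0.0802 FPKM versus 0.0184 and 0.0196 FPKM, and the TAP2 locus 0.0253 and 0.0109 FPKM versus 0.0202 and 0.00862 FPKM. All 3 overlapped between the groups.

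**Figure D3:**
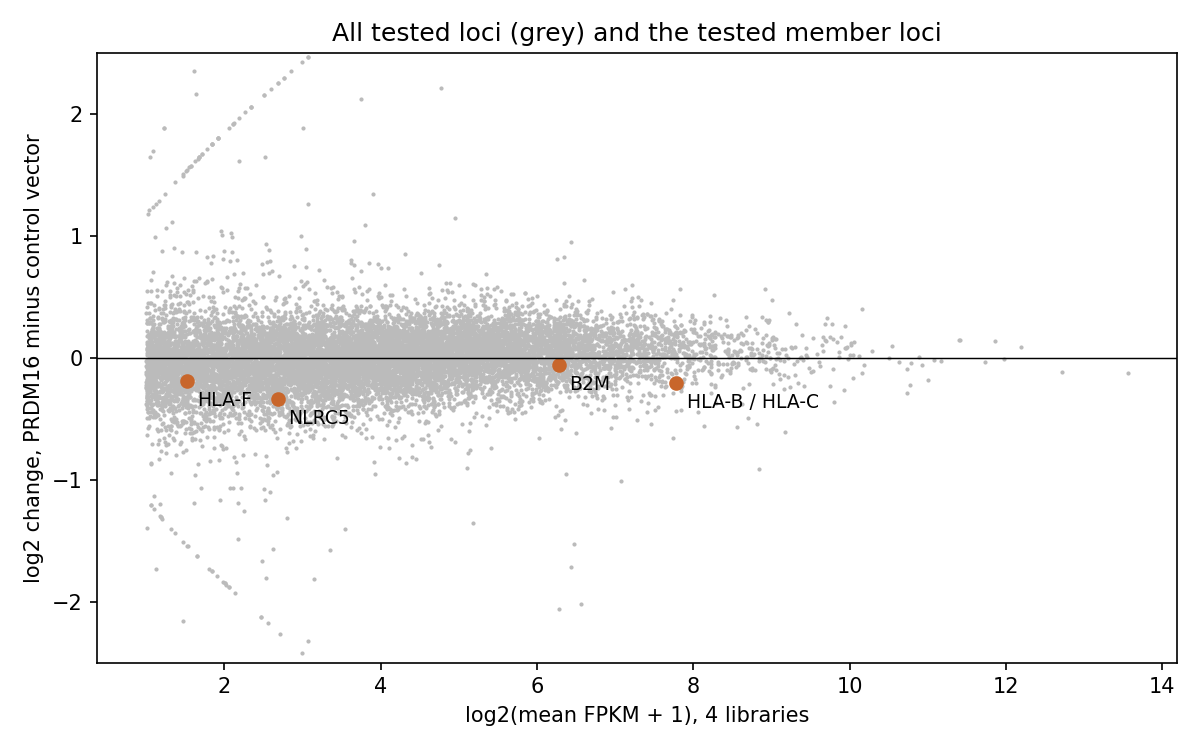
log2 change between PRDM16 and control vector (y axis, log2(FPKM + 1) scale) against log2(mean FPKM + 1) over the 4 libraries (x axis) for the tested loci in grey, with the 4 tested member loci in orange. The members lie just below 0, between -0.33 and -0.06, inside the cloud of all loci, and 47 loci beyond a change of 2.5 in either direction are not drawn.

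Other genes of the pathway, listed by role, gave 64 loci beside the members, of which 47 could be tested. None passed (limma, 0 called). An unadjusted limma p under 0.05 was found in 2 of the 47, beside 6.12% of all tested loci. Both PRDM16 libraries lay below both control vector libraries in 13 (27.7%, beside 20.3% of all loci) and above in 8 (17.0%, beside 21.1%). Their median log2 change was -0.07. Without control vector replicate 2 the same loci gave 13 below (27.7%, beside 36.2%) and 17 above (36.2%, beside 34.0%), with a median of 0.03. Without control vector replicate 1 they gave 32 below (68.1%, beside 40.7%) and 10 above (21.3%, beside 43.9%), with a median of -0.18. The direction of the median and of the difference in counts thus rests on control vector replicate 2. Of the 15 pathway genes named below by rule, 9 had a change over 1.5 times smaller, or of the other sign, without that library, and 0 without control vector replicate 1.

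For peptide transport and loading outside the members, 6 of 6 loci had a lower mean with PRDM16 and 2 lay lower in both PRDM16 libraries (20.3% of all loci did). ERAP1, the aminopeptidase that trims peptides in the endoplasmic reticulum, was 16.4 and 19.9 FPKM versus 14.5 and 14.6 FPKM (log2 change -0.30, SE 0.12, limma adjusted p = 0.689). Leaving out control vector replicate 2 gave -0.16 for it, and leaving out control vector replicate 1 gave -0.43. The locus of TAPBPL, a tapasin relative that edits peptides, also names CD27 and was 7.05 and 10.4 FPKM versus 6.74 and 6.93 FPKM. The chaperone genes CALR, CANX and PDIA3 overlapped between the groups. Without control vector replicate 2 the median change of the 6 loci was 0.02, where it was -0.07 with all libraries, and 2 of the 6 lay below, beside 36.2% of all loci.

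No proteasome locus passed the test. With all libraries, 3 of 3 tested inducible and activator loci had a lower mean and 1 of them did not overlap (20.3% of all loci lay below), while 3 of 3 constitutive loci had a higher mean and 2 did not overlap (21.1% lay above). Without control vector replicate 2 the inducible and activator loci had a median change of 0.04, so the direction of their median rests on that library. In that setting 1 of them lay below and 1 above, beside 36.2% and 34.0% of all loci. The constitutive loci then had a median of 0.08, with 2 above and 0 below. PSMB8 and PSMB9, inducible catalytic subunits encoded beside TAP1, were listed at 0 like their neighbours. The locus of the inducible subunit PSMB10, which lies outside the MHC and also names CTRL, was 50.9 and 71.9 FPKM versus 57.3 and 47.8 FPKM and overlapped, and PSME2, a subunit of the proteasome activator, was 61.7 and 71.0 FPKM versus 59.2 and 49.5 FPKM. The constitutive catalytic subunit PSMB7 was 265 and 236 FPKM versus 289.7 and 303 FPKM (log2 change 0.24, SE 0.10, limma adjusted p = 0.689), and PSMB6 was 167 and 147 FPKM versus 172 and 182 FPKM. The log2 change of PSMB10 was -0.20, and it was 0.04 without control vector replicate 2. That of PSME2 was -0.29, and it was -0.19 without the same library. The difference in sign between the proteasome groups was not tested.

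Regulators of class I transcription showed no common direction, with 7 of 12 tested loci lower and 5 higher. RFX5, a subunit of the complex on the X1 box, was 16.9 and 21.5 FPKM versus 17.1 and 13.6 FPKM. CREB1, a factor that can bind the X2 box, was 39.3 and 36.6 FPKM versus 36.0 and 28.5 FPKM. Neither passed (limma adjusted p = 0.689 for each). Both PRDM16 libraries were lower in 2 of the 12 and higher in 2, beside 20.3% and 21.1% of all loci.

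Interferon receptor and JAK-STAT genes had a lower mean in 8 of 10 tested loci, and 3 lay lower in both PRDM16 libraries, beside 20.3% of all loci. JAK1, a kinase bound to interferon receptors, was 163 and 172 FPKM versus 148 and 141 FPKM (log2 change -0.21, SE 0.08, limma adjusted p = 0.689). The locus of the interferon receptor gene IFNAR2 also names IL10RB and another gene and was 42.8 and 45.9 FPKM versus 39.8 and 39.0 FPKM. The median change of the 10 loci was -0.11 with all libraries and -9.165e-05 without control vector replicate 2, where 3 of the 10 lay below, beside 36.2% of all loci.

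Class II genes, the counterpart for peptides taken up from outside, mostly lie in the same stretch of chromosome 6, and 5 of 9 loci were listed at 0. The invariant chain gene CD74 on another chromosome was 10.8 and 17.3 FPKM versus 9.73 and 10.7 FPKM (log2 change -0.39, SE 0.23, limma adjusted p = 0.689). The change was -0.07 without control vector replicate 2. CIITA, the class II transactivator gene on the same list, was 0.147 and 0.0567 FPKM versus 0.0473 and 0.0664 FPKM, below the minimum for the test. The cause of the low class II values was not tested.

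Among class I relatives and ligands of NK cell receptors, 4 of 7 tested loci were lower and 3 higher. MR1, which presents vitamin B metabolites, was 5.42 and 6.42 FPKM versus 4.47 and 3.67 FPKM (log2 change -0.45, SE 0.14, 95% interval -0.83 to -0.07). That was the largest change among the named pathway genes, with an unadjusted limma p of 0.0298 and an adjusted p of 0.689. FCGRT, the neonatal Fc receptor, was 3.11 and 3.76 FPKM versus 2.78 and 2.47 FPKM. Of the 5 inhibitory ligand loci, 3 were lower and 2 higher. CD274, which encodes PD-L1, was 7.05 and 7.13 FPKM versus 10.3 and 8.60 FPKM (log2 change 0.36, SE 0.12, limma adjusted p = 0.689, with an unadjusted p under 0.05). The locus of PVR also names CEACAM19 and was 81.9 and 83.4 FPKM versus 78.6 and 72.7 FPKM.

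**Figure D4:**
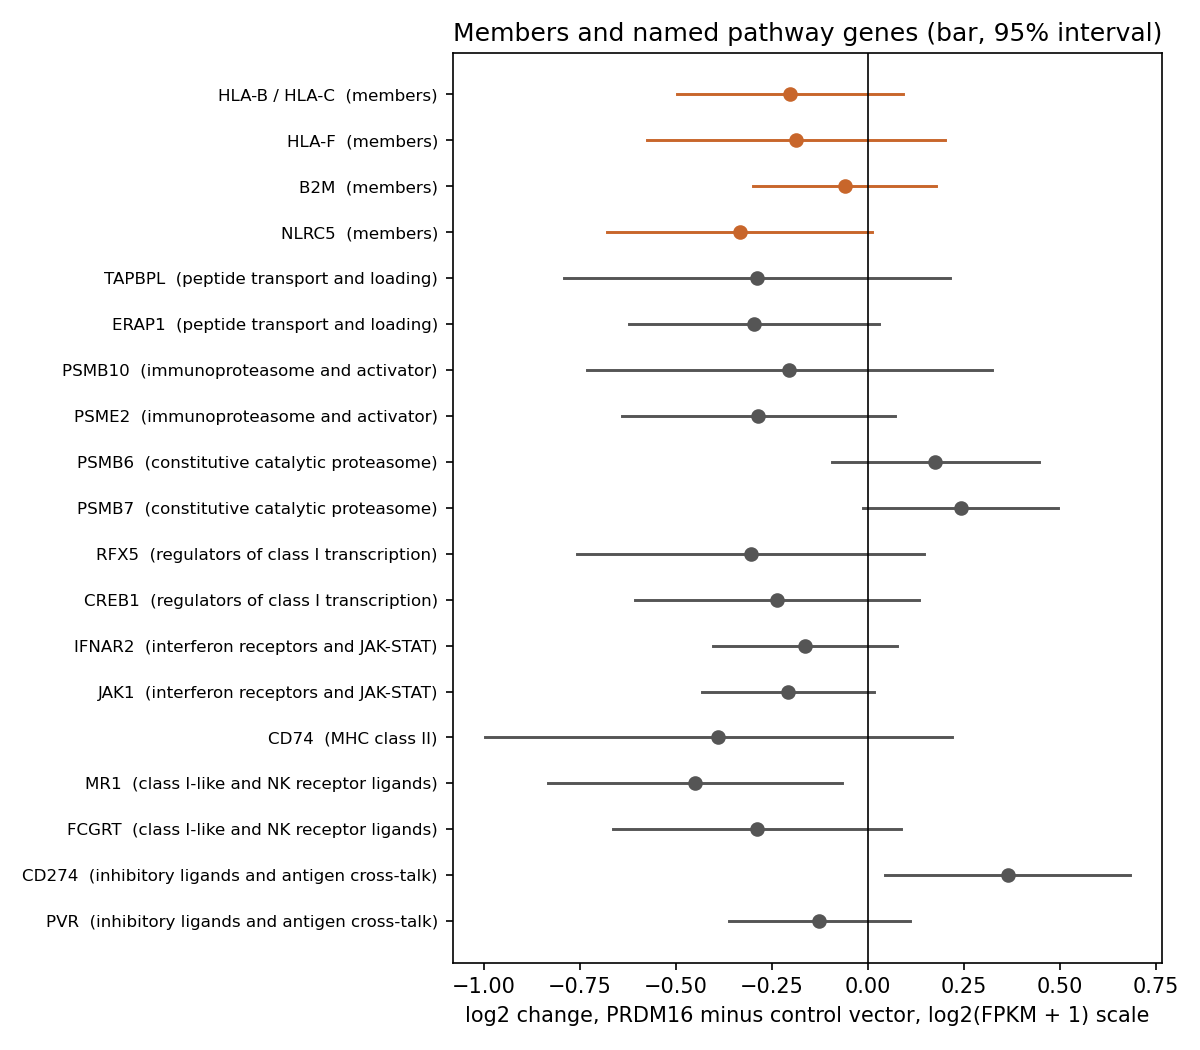
log2 change, PRDM16 minus control vector (x axis, log2(FPKM + 1) scale), of the 4 tested members in orange and 15 named pathway genes in grey, with dots for the estimate and bars for the 95% interval of the limma fit, not adjusted for the number of loci. The bars of all 4 members cross 0, and only those of MR1, on the lower side, and CD274, on the higher side, do not.

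The profiles nearest to the mean of B2M, NLRC5 and HLA-F, the single-gene tested members, are given as a description. This mean leaves out the HLA-B and HLA-C locus. Of the control vector libraries, HLA-F was higher in replicate 1, and B2M and NLRC5 were higher in replicate 2. These differences partly cancel in the mean, so a gene near it need not be near each member. Over the 4 libraries, the mean centred log2 profile of the single-gene tested members read 0.09 and 0.11 with the control vector, then -0.07 and -0.13 with PRDM16. Among 7151 single-gene protein-coding loci with a mean of at least 5 FPKM, the smallest Euclidean distances to it were those of MLXIP (0.0116), VPS36 (0.0172), RELL2 (0.0178), SETD1B (0.0179) and SKAP2 (0.0215). With 4 libraries, many loci lie near any such profile.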

How the data were processed

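Total RNA libraries of 786-O cells were compared, 2 with the control vector and 2 with PRDM16. The submitters' processing notes name the hg38 build, TopHat2 2.1.0, Cufflinks 2.2.1 with Cuffdiff, and Trim Galore. For annotation, strand and library scaling, the choice made is not given in the sources used here. No unit stands in the header of the deposited table, and the authors' values were read as FPKM from the tools named and from values that are not whole and do not sum to a fixed total. Read depth is unknown, so no counting interval is given.

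Groups came from the sample titles and vector labels. Loci with a mean of at least 1 FPKM over 4 libraries (13246) were fitted in R 4.3.3 with limma 3.58.1 on log2(FPKM + 1), with a variance trend, a two-sided moderated test and Benjamini-Hochberg adjustment over all loci tested, at a threshold of 0.05. That scale understates changes of low genes. An exact permutation test of 2 against 2 libraries cannot go below p = 0.333 and was not used. Members were matched to all loci naming them. Gene positions are from GENCODE release 29 (GRCh38), in which 60.3% of single locus names were found, and promoters from RefSeq (GRCh38.p14). Other tools were Python 3.11.15, numpy 2.4.6, pandas 2.3.3 and matplotlib 3.10.9.

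The members and lists were chosen with earlier results of these data known. From each list outside the members, the text names any gene past the threshold, or else up to 2 tested genes with the smallest p among those reported, and the 5 nearest profiles. Chaperones, markers and CIITA are named beyond this rule, after their values were seen. No count model was fitted, since the values are not counts. Some genes are not reported here: they are part of the fit over all loci and are left out of the list counts, the counts by region, the nearest profiles and the plots other than that of all tested loci. Alternatives covered the pseudocount, the filter, scaling, variances, a replicate block and each library left out.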

Additional observations from a re-analysis of the deposited data

How the results depend on the processing

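No member passed in any setting run, and the 4 tested members kept a lower mean with PRDM16 in each setting that tested them. Their median log2 change ranged from -0.24 to -0.18. The number of members lower in both PRDM16 libraries was 2 with a mean FPKM of at least 5, which drops HLA-F, and with single-gene loci only, and 3 in the other settings with all libraries. Over the whole table, where 3 loci were called, the count was 5 with a pseudocount of 0.1, 6 without a variance trend, 5 with robust variances, 1 without a filter on low values, 1 at an adjusted p under 0.01, and 16 to 39 with a library left out. Of the named pathway genes, PSMB10 changed sign: its log2 change was 0.0394 without control vector replicate 2, and it was -0.449 once control vector replicate 1 was left out, the ends of its range with a library left out. With the replicate number as a block, 5 loci were called and no member. The labels do not say that the numbers pair the libraries, and same-numbered libraries did not deviate together across loci (correlation -0.06). No member has several loci, so no sums were made. The counts of list members without a control vector library were added after seeing the data. Because the number of reads behind a value is unknown, the precision of HLA-F and of the members below 1 FPKM cannot be given. The control vector libraries differed more from each other (median absolute log2 difference 0.190) than the PRDM16 libraries did (0.098).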
